A study of Mus musculus with 12 samples.

Results

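The 10 genes described here encode plasma proteins that make or restrain a blood clot: the fibrinogen chains Fga and Fgb, prothrombin (F2), factors V, VII, IX, X and XI (F5, F7, F9, F10, F11), and the anticoagulants protein C (Proc) and antithrombin (Serpinc1). They were chosen by name from a table of 36528 gene IDs, all 10 had counts in every liver, and all 10 were among the 16032 genes that passed the filter on low counts. RNA came from 12 samples of whole liver of mice given intraperitoneal injections 3 times per week for 6 weeks. For 6 samples the injection was carbon tetrachloride (CCl4), a solvent that hepatocytes convert to a toxic radical, and in the other 6 it was the corn oil vehicle, so both groups were injected on the same schedule. Strain, sex, age and dose are not given in the labels used here, nor whether livers were handled in batches. CCl4 injury is a chemical model whose damage centres on the hepatocytes around the central vein, and whole liver mixes all cell types.

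Clotting runs as a relay of serine proteases that circulate as inactive precursors. Tissue factor with factor VII starts it, factors IX and XI amplify it, factor X with its cofactor factor V turns prothrombin into thrombin, and thrombin cuts fibrinogen into fibrin. Protein C, once activated, destroys cofactors V and VIII, and antithrombin blocks thrombin and factor X. Hepatocytes make nearly all of these proteins, and the clotting time of plasma is a routine measure of how much of them the liver secretes. Factors II, VII, IX and X and protein C also receive a vitamin K dependent modification before secretion.

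After CCl4 the transcripts of F7, F5, Proc, F9 and Serpinc1 fell, by 1.69-fold for F7 and by 1.27-fold to 1.48-fold for the other 4. Those of F2, F10, F11, Fga and Fgb did not pass the test, and no member rose. This count of 5 lower genes of 10 stands beside 18.4% of all tested genes that were called lower, 20.6% called higher and 39.0% called in either direction (edgeR's quasi-likelihood test, Benjamini-Hochberg adjusted p under 0.05 over all 16032 genes). The fitted log2 fold change was below 0 for all 10 (F11 was at 0.017 with upper-quartile scaling, and F2 at 0.053 and F11 at 0.17 with scaling by total counts alone), with a median of -0.34, while the median over all tested genes was 0.01. In F7, F9 and Proc all 6 CCl4 livers lay below all 6 oil livers, which 8.03% of tested genes did. As a share of each library's total counts, with no TMM factor, this held for F7 alone, and for 3.21% of tested genes; F9 and Proc then overlapped. The count was 2 with upper-quartile scaling, where only F7 and Proc passed. That fit called 12.6% of all genes lower, and the median of all genes stood at 0.13. The count was 3 without CCl4 replicate 2 or without oil replicate 3, 4 or 6, beside 14.6% to 15.5% of all genes called lower. Scaling by total counts alone, an alternative chosen after the data were seen, left F7 as the only member called lower (log2 fold change -0.50, adjusted p = 0.00520). That scaling moved the median of all genes to 0.27 and called 8.12% of them lower and 34.1% higher. In whole liver, fewer hepatocytes and less RNA per hepatocyte cannot be told apart.

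**Figure D1:**
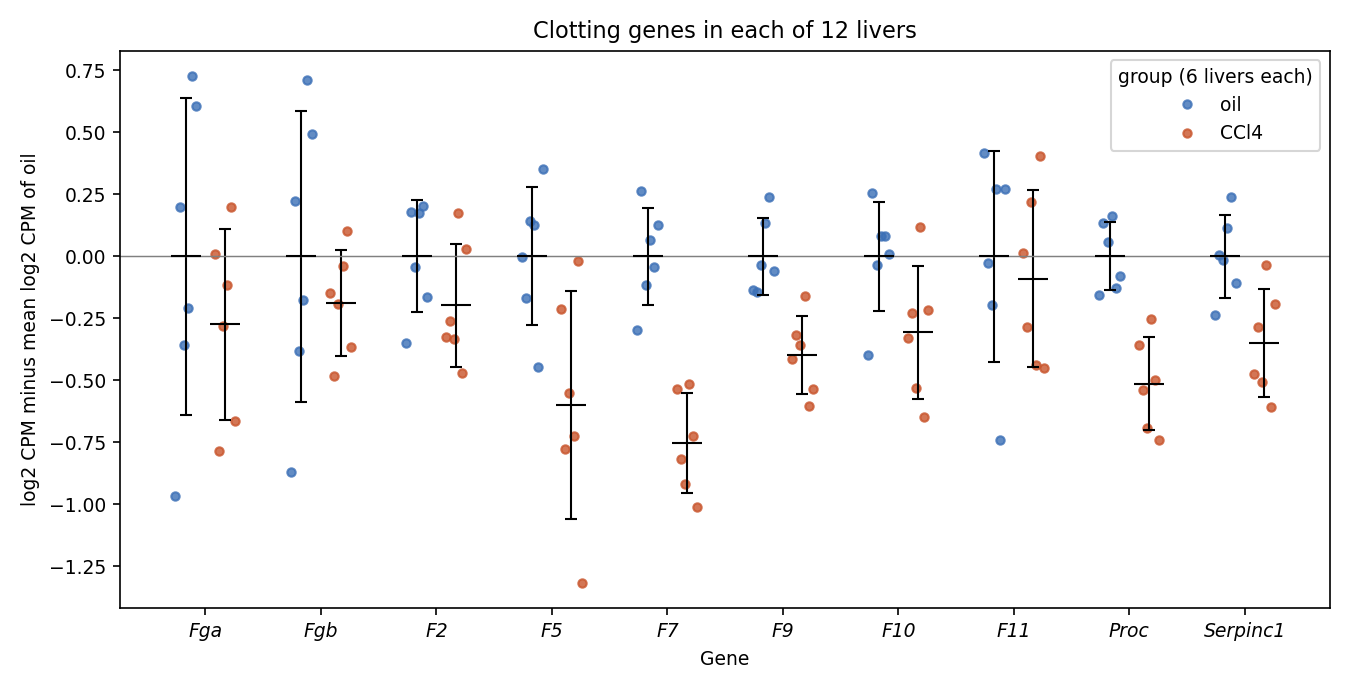
Log2 CPM of each clotting gene in each liver, minus the mean log2 CPM of the 6 oil livers (y axis), by gene (x axis). Points are livers, and bars give the group mean and SD (n = 6 each). The groups do not overlap for F7, F9 and Proc, and the oil livers spread widest for Fga and Fgb.

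Total counts per library ran from 43027778 to 70375852, and the lowest raw count of any member in any liver was 1486 (F11), so counting error was small beside the differences between livers. Values below are CPM, counts per 1000000 after TMM scaling. The 6 hepatocyte markers summed to 92730 to 128700 CPM in oil and to 84300 to 129400 CPM in CCl4. Most of that sum was Alb, at a mean of 78023 CPM in oil and 77063 CPM in CCl4. Of these markers 3 fell and none rose: Apob (1.62-fold), Tdo2 (1.48-fold) and Cps1 (1.45-fold). Alb, Ttr and Apoa1 did not pass. Markers of some other cells moved with the groups. The 6 macrophage markers (5 of 6 rose) summed to 174 to 256 CPM in oil and 409 to 717 CPM in CCl4. The 6 markers of stellate cells and myofibroblasts (6 of 6 rose) summed to 45.1 to 114 and 330 to 520 CPM. Sinusoidal endothelial markers (2 of 6 rose and 1 fell) summed to 122 to 203 and 156 to 196 CPM, and cholangiocyte markers (1 of 4 rose) to 9.37 to 24.4 and 15.8 to 23.6 CPM. The platelet and megakaryocyte list summed to 3.81 to 5.34 CPM in oil and 11.2 to 22.9 CPM in CCl4. In that list Gp1bb and Pf4 rose, 2 of 5 tested, while Itga2b, an integrin of platelets named after its values were seen, was at 2.74 ± 0.406 CPM in oil and 3.05 ± 0.575 CPM in CCl4 (SD, n = 6 each). Erythroid markers (1 of 3 rose and 1 fell) summed to 209 to 462 and 168 to 1069 CPM. The 4 skeletal muscle markers, none of them tested, summed to 226 CPM in CCl4 replicate 1, 39.2 CPM in CCl4 replicate 3, 0.0157 to 0.439 CPM in the other 4 CCl4 libraries and 0.0234 to 0.754 CPM in oil, with Acta1 and Myh4 at 0 in CCl4 replicates 2 and 4. The part of these other cells in the results on clotting genes was not tested.

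Fibrinogen is built of 3 chains, each from its own gene in a cluster on chromosome 3 of the GRCm38 build. Fga (gene ID 14161, 83026153 to 83033627) encodes the alpha chain and Fgb (gene ID 110135, 83042246 to 83049863) the beta chain; both are known acute phase genes. Fga ran from 3642 through a median of 7167 to 11794 CPM in the oil livers and from 4130 through 6212 to 8172 CPM in the CCl4 livers. Fgb ran from 3307 through 6194 to 9875 CPM in oil and from 4320 through 5369.8 to 6473 CPM in CCl4. For both chains oil replicate 1 was the lowest and oil replicate 5 the highest of the 12 livers, and the CCl4 livers lay inside that range. The highest oil liver stood 3.24-fold above the lowest for Fga and 2.99-fold for Fgb, against 1.98-fold and 1.5-fold among the CCl4 livers. The log2 fold change was -0.34 ± 0.27 (SE) for Fga and -0.27 ± 0.23 for Fgb (adjusted p = 0.318 and 0.361). Their 95% confidence intervals, -0.91 to 0.23 and -0.76 to 0.22, allow a fall of more than 1.5-fold as well as a small rise. Without oil replicate 5 the log2 fold changes were -0.19 and -0.11, and without oil replicate 1 they were -0.52 and -0.43, none of them past the threshold.

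Fga and Fgb followed each other from liver to liver. Within a library there were 1.10 to 1.28 Fga counts for each Fgb count in oil and 0.956 to 1.32 in CCl4. This ratio did not differ between groups beyond its spread (log2 difference -0.09, exact two-sided permutation test of 6 against 6, p = 0.333, adjusted over 5 ratios p = 0.333). For the gamma chain, Fgg, the ratio to Fgb was 0.869 to 1.18 in oil and 0.919 to 1.499 in CCl4 (log2 difference 0.19, exact permutation p = 0.162, adjusted p = 0.203). Fgg and Fgb put the oil livers in the same order, but not the CCl4 livers. There Fgg was highest in replicate 6 (7020 CPM), where Fgb was at 4682 CPM. It was lowest in replicate 1 (5043 CPM), where Fgb was at 5449 CPM. After centring each gene on its own mean, the profiles of Fga and Fgb over the 12 livers differed by a mean of 0.11 on the log2 scale. Of 8366 other genes whose log2 CPM averaged 3 or more, Itih4 was nearest to both, at a mean absolute difference of 0.15 from Fga and 0.10 from Fgb.

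The promoters of all 3 chains are shown because their genes form 1 cluster and make 1 protein. Those of Serpinc1 and F5, which fell with calls that depended on the processing, as given below, are set beside them for comparison. Each line holds the 250 bases before the start site, 5′ to 3′ on the gene's strand, from RefSeq for GRCm38.p6, with motif matches in capitals.
Fga, chr3:83025903-83026152, plus strand: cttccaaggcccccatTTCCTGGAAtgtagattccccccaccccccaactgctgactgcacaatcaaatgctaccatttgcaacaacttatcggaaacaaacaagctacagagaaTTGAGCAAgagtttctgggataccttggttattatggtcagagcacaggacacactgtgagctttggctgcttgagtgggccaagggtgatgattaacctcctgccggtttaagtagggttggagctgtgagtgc
Fgb, chr3:83049864-83050113, minus strand: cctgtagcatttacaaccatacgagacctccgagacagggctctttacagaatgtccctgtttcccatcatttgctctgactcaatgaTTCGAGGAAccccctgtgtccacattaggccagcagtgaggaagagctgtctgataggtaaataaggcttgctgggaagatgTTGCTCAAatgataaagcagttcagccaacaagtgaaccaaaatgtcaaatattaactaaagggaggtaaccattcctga
Fgg, chr3:83007474-83007723, plus strand: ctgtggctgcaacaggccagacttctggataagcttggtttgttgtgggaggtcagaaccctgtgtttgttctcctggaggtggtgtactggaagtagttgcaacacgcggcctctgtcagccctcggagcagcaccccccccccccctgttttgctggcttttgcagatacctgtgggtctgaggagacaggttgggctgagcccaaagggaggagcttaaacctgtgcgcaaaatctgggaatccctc
Serpinc1, chr1:160978333-160978582, plus strand: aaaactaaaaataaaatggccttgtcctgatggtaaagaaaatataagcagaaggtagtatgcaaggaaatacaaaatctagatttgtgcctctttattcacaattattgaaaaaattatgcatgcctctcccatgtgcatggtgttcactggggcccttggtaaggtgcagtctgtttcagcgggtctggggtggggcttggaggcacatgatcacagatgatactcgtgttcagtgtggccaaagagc
F5, chr1:164151585-164151834, plus strand: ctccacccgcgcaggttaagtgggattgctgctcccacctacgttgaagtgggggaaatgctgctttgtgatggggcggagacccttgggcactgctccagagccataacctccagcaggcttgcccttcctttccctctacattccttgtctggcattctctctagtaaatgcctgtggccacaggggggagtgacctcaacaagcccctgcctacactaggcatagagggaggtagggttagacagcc

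Promoter windows of 300 bases, with 250 before and 50 after the start site, were found for 9 of the 10 members; Proc was not matched. Of the motifs searched, those given here are, on both strands, CAAAGTCC (HNF4), TTGCNNAA (C/EBP) and TTCNNNGAA (STAT, the same on both strands). The C/EBP letters stood in the windows of F9, F11, Fga, Fgb and Serpinc1, 5 of 9, and in 10.8% of all 32851 windows. The STAT letters stood in those of F9, Fga and Fgb, 3 of 9, and in 8.30% of all windows. Counted from the start site, the STAT letters begin at -234 in Fga and -162 in Fgb and the C/EBP letters at -135 and -80, with no overlap. In F9 they begin at -82 and -24, and in Serpinc1 the C/EBP letters begin at 5, past the bases shown. The F5 window held none of them, nor did that of Fgg, so the 3 fibrinogen promoters are not alike in these letters. For F7, F9 and F11 even the 250 bases before the start site lie wholly or partly inside the annotated gene, and they are not shown. The matches given for F9 and F11 stand inside those annotated spans. The windows of F2 and F10, which held none of these letters, are not shown either. The HNF4 letters (1.42% of all windows) were in none of the 9. A match is a stretch of letters and not a shown binding site.

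F2 and F5 act at the step that makes thrombin. F2 (gene ID 14061, chromosome 2, 91612397 to 91636457) encodes prothrombin. It ran from 1463 through 1958 to 2150 CPM in oil and from 1345 through 1523 to 2109 CPM in CCl4. The groups overlapped over most of their range, and CCl4 replicate 5 alone was below the lowest oil liver. The log2 fold change was -0.19 ± 0.15 (SE; 95% confidence interval -0.50 to 0.12; adjusted p = 0.300). The span of F2 overlaps that of Ckap5 (14.6 ± 3.86 CPM in oil and 11.3 ± 2.59 CPM in CCl4), far below F2.

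F5 (gene ID 14067, chromosome 1, 164151835 to 164220277) encodes factor V, the cofactor of factor X. It ran from 294 through 418 to 511 CPM in oil and from 161 through 258 to 396 CPM in CCl4. The groups overlapped, with CCl4 replicates 1 and 5 above the lowest oil liver, replicate 5. F5 fell 1.48-fold (log2 fold change -0.56 ± 0.20 SE, adjusted p = 0.0395). The call was lost on dropping any one of CCl4 replicates 2, 4 and 6 and oil replicates 3, 4 and 6, at an adjusted p of 0.0636 to 0.0860. Upper-quartile scaling (0.0972) and a filter of 50 counts in 6 libraries (0.0504) took the adjusted p of F5 past the threshold too, as did scaling by total counts (0.299). F5 had the widest spread of all 10 among the CCl4 livers, with an SD of 0.46 on the log2 scale.

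F7, F9 and F10 encode proteases of one family, which share the vitamin K dependent domain and the order of their other domains. F7 (gene ID 14068, chromosome 8, 13025506 to 13035809) encodes factor VII, the partner of tissue factor. It ran from 81.8 through 101.4 to 121 CPM in oil and from 49.8 through 58.9 to 70.3 CPM in CCl4. Every CCl4 liver was below every oil liver. F7 fell 1.69-fold, the largest fall of the 10 (log2 fold change -0.75 ± 0.13 SE, adjusted p = 0.000369). It passed in all 24 alternative analyses, with log2 fold changes between -0.84 and -0.50.

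F9 (gene ID 14071, chromosome X, 59999329 to 60030760) encodes factor IX, the protein missing in haemophilia B. It ran from 208 through 223 to 272 CPM in oil and from 151 through 176 to 206 CPM in CCl4. The groups did not overlap, though CCl4 replicate 4 came close to the lowest oil liver. F9 fell 1.32-fold (log2 fold change -0.40 ± 0.12 SE, adjusted p = 0.0142), but not past the threshold with upper-quartile scaling (log2 fold change -0.28, adjusted p = 0.0683) or scaling by total counts (-0.14, adjusted p = 0.310).

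F10 (gene ID 14058, chromosome 8, 13037308 to 13056676) encodes factor X. It ran from 348 through 473 to 548 CPM in oil and from 292 through 378 to 497 CPM in CCl4. The groups overlapped, since oil replicate 1 was lower than 4 of the CCl4 livers and CCl4 replicate 4 was higher than 5 of the oil livers. F10 did not pass (log2 fold change -0.30 ± 0.15 SE, 95% confidence interval -0.61 to 0.02, adjusted p = 0.120). It did without CCl4 replicate 4 (log2 fold change -0.40, adjusted p = 0.0420).

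F7 and F10 are neighbours, 1.5 kb apart, and F10 is followed after 3.91 kb by Proz, which encodes protein Z, a cofactor of an inhibitor of factor X. Proz was at 297 ± 29.2 CPM in oil and fell 1.85-fold to 161 ± 32.1 CPM (SD, n = 6 each; adjusted p = 0.000297), so that the gene that did not pass lies between a pair that fell. The count ratio of F7 to F10 within a library was 0.202 to 0.238 in oil and 0.126 to 0.208 in CCl4. It was lower in CCl4, with a log2 difference of -0.45 (exact two-sided permutation test, p = 0.00649, adjusted over 5 ratios p = 0.0216; the smallest possible p is 0.00216). CCl4 replicate 5 alone lay inside the oil range. The difference between F10 and Proz was not tested.

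F11 (gene ID 109821, chromosome 8, 45240659 to 45262055) encodes factor XI. It ran from 38.7 through 70.6 to 86.3 CPM in oil and from 47.2 through 59.1 to 85.4 CPM in CCl4. The groups covered nearly the same range, and both the highest and the lowest of the 12 were oil livers. The log2 fold change was -0.10 ± 0.20 (SE; 95% confidence interval -0.54 to 0.34; adjusted p = 0.718), and its sign turned with upper-quartile scaling (0.017). Its neighbour and close relative Klkb1, prekallikrein of the contact pathway, lies 4.63 kb away and fell 1.92-fold, from 307 ± 43.1 to 160 ± 24.1 CPM (SD, n = 6 each; adjusted p = 9.04e-05). There were 0.154 to 0.285 F11 counts for each Klkb1 count in oil and 0.265 to 0.577 in CCl4. The ratio was higher in CCl4 (log2 difference 0.85, exact two-sided permutation p = 0.00866, adjusted p = 0.0216), with CCl4 replicates 2 and 4 inside the oil range.

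Proc (gene ID 19123, chromosome 18, 32123126 to 32139570) encodes protein C, the vitamin K dependent anticoagulant. It ran from 429 through 475 to 535 CPM in oil and from 286 through 334 to 401 CPM in CCl4. No CCl4 liver reached the lowest oil liver. Proc fell 1.42-fold (log2 fold change -0.51 ± 0.12 SE, adjusted p = 0.00387), and passed in 23 of 24 alternative analyses, the exception being scaling by total counts (-0.26, adjusted p = 0.0788).

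Serpinc1 (gene ID 11905, chromosome 1, 160978583 to 161002543) encodes antithrombin, a protease inhibitor of the serpin family. It ran from 1761 through 2068 to 2446 CPM in oil and from 1361 through 1597 to 2027 CPM in CCl4. The groups overlapped through CCl4 replicates 4 and 6, which lay above the lowest oil liver. Serpinc1 fell 1.27-fold (log2 fold change -0.34 ± 0.13 SE) at an adjusted p of 0.0481, just inside the threshold. It passed in 9 of 24 alternative analyses. Dropping any one of CCl4 replicates 1, 2, 3 and 5 and oil replicates 2 to 6 ended the call, at an adjusted p of 0.0545 to 0.0890, while upper-quartile scaling gave 0.171 and scaling by total counts 0.471.

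The ratio of prothrombin to antithrombin counts was close to even in every liver. It was 0.831 to 1.015 in oil and 0.915 to 1.05 in CCl4, a log2 difference of 0.15 (exact two-sided permutation p = 0.0195, adjusted p = 0.0325). Oil replicates 2 and 4 lay above the lowest CCl4 liver, replicate 2. Dropping any one of CCl4 replicates 3, 4 and 6 and oil replicates 1, 3, 5 and 6 ended the call, at an adjusted p of 0.0505 to 0.0577.

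**Figure D2:**
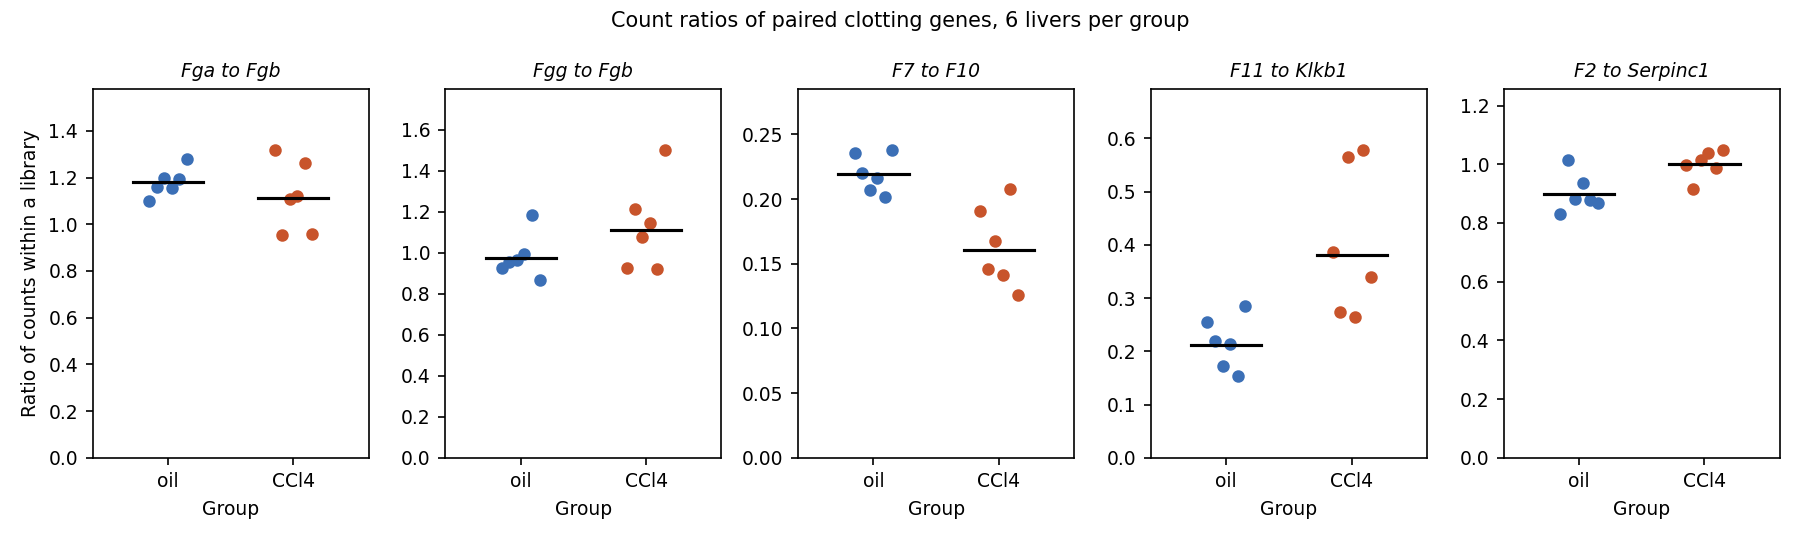
Ratio of raw counts within a library (y axis, linear) for 5 gene pairs in oil and CCl4 livers (x axis). Points are livers (n = 6 each) and bars geometric means. F7 to F10 is lower in CCl4, F11 to Klkb1 and F2 to Serpinc1 are higher, and the fibrinogen ratios overlap.

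Levels can be set beside each other only per length. Divided by the median length of a gene's GENCODE transcripts, the order in oil was Fga (3297 CPM per kb), Serpinc1 (2361), Fgb (1693), F2 (948), Proc (660), F10 (319), F9 (84.6), F5 (54.7), F7 (54.5) and F11 (46.8). The median of Serpinc1, 883.5 bases, includes short transcripts, and its longest has 4970. With the longest transcript instead, Serpinc1 took place 4 (420 CPM per kb) behind Fgb and F2, and the remaining 7 kept their places. The ranges of Fga, Serpinc1 and Fgb overlapped in oil, as did those of F2 with Fgb and with Proc and those of F5, F7 and F11, whereas F9 at 76.1 to 99.4 CPM per kb lay above all livers of F5. In CCl4, by the median length, F7 was last, at 32.3 ± 4.53 CPM per kb (SD, n = 6), and F11 stood at 43.6 ± 11.04. This change of last place depended on the length used. By the longest transcript F11 was last in CCl4 as in oil, at 27.8 ± 7.03 CPM per kb, behind F7.

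Of the other nearest tested protein-coding neighbours, the pair beside F5 fell with it: Selp at a log2 fold change of -0.40 (adjusted p = 0.0298) and Slc19a2 at -0.86 (adjusted p = 0.000481). Map3k2 beside Proc (-0.37) and Rc3h1 beside Serpinc1 (-0.37) fell as well. Mcf2l beside F7 rose (1.30, at under 1 CPM), as did Rbmx on the left of F9 (0.47), which is 2610 kb away. Lrp4 and Zfp408 beside F2, Plrg1 beside Fgb, Mtnr1a beside F11, Iws1 beside Proc and Zbtb37 beside Serpinc1 did not pass.

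The members did not all vary alike. By the mean absolute difference of centred log2 profiles, the nearest pair was F9 and Serpinc1 (0.09), and F7 was nearest to Proc (0.13). The most distant pair was F11 and Fga (0.47). Outside the 10, the nearest gene was Psmd3 for F7 (0.06), Ndufa10 for Proc (0.04), Suclg2 for F9 (0.06), Phb2 for Serpinc1 (0.05), Pink1 for F2 (0.07), Scaf11 for F5 (0.06), Hpn for F10 (0.08) and Lrrk1 for F11 (0.11).

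Some properties of the libraries moved with the groups or with these genes. The share of counts from mitochondrial genes was 2.20% to 3.67% in CCl4 and 3.84% to 6.20% in oil, and the TMM factor was 0.992 to 1.21 in CCl4 and 0.883 to 0.985 in oil, both without overlap. With scaling factors taken without mitochondrial genes 5 members were again called lower, beside 18.6% of all tested genes. What else these properties had to do with the results was not tested. The length slope of a library is the slope of its log2 CPM, centred per gene, on log2 transcript length, so that a negative slope marks a library with relatively fewer counts from long transcripts. It was negative in CCl4 replicates 2, 4 and 6 (-0.12, -0.11 and -0.20) and in oil replicate 5 (-0.10), and ran from 0.0075 to 0.13 in the other 8. In these 4 libraries F11 was at 38.7 to 52.9 CPM, below all 8 others (56.4 to 86.3 CPM). F5 was lowest of its group in them: the 3 lowest CCl4 livers and the lowest oil liver. For F2 and Serpinc1 the order was the opposite, with the same 3 libraries the highest of the CCl4 livers and oil replicate 5 the highest of all oil livers. The median transcript length was 7430 bases for F5, 1427 for F11, 1988 for F2 and 883.5 for Serpinc1, so F11 was shorter than F2. Why F11 was low in these libraries was not tested. F7 and Proc showed no such order. Their CCl4 livers were lower on either side of 0, which any split gives because their groups did not overlap.

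With the length slope as a covariate in the same edgeR fit, 7 of the 10 genes were lower, beside 23.0% of all tested genes: F2 (log2 fold change -0.35, adjusted p = 0.0208) and F10 (-0.43, adjusted p = 0.0120) passed beside the 5 named above. F5 then had a log2 fold change of -0.30 (adjusted p = 0.0174) in place of -0.56, and F11 turned to 0.18 (adjusted p = 0.270). Leaving out all 4 libraries with a negative slope, an alternative chosen after the data were seen, left 5 livers of oil and 3 of CCl4 and again 5 lower genes, beside 16.7% of all genes in that fit. Then F10 was among them (-0.50, adjusted p = 0.0255) and F5 was not (-0.35, adjusted p = 0.106). Without these libraries the ratio of F7 to F10 differed by -0.25 on the log2 scale and that of F11 to Klkb1 by 1.152 (exact permutation, adjusted p = 0.0893 for both).

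**Figure D3:**
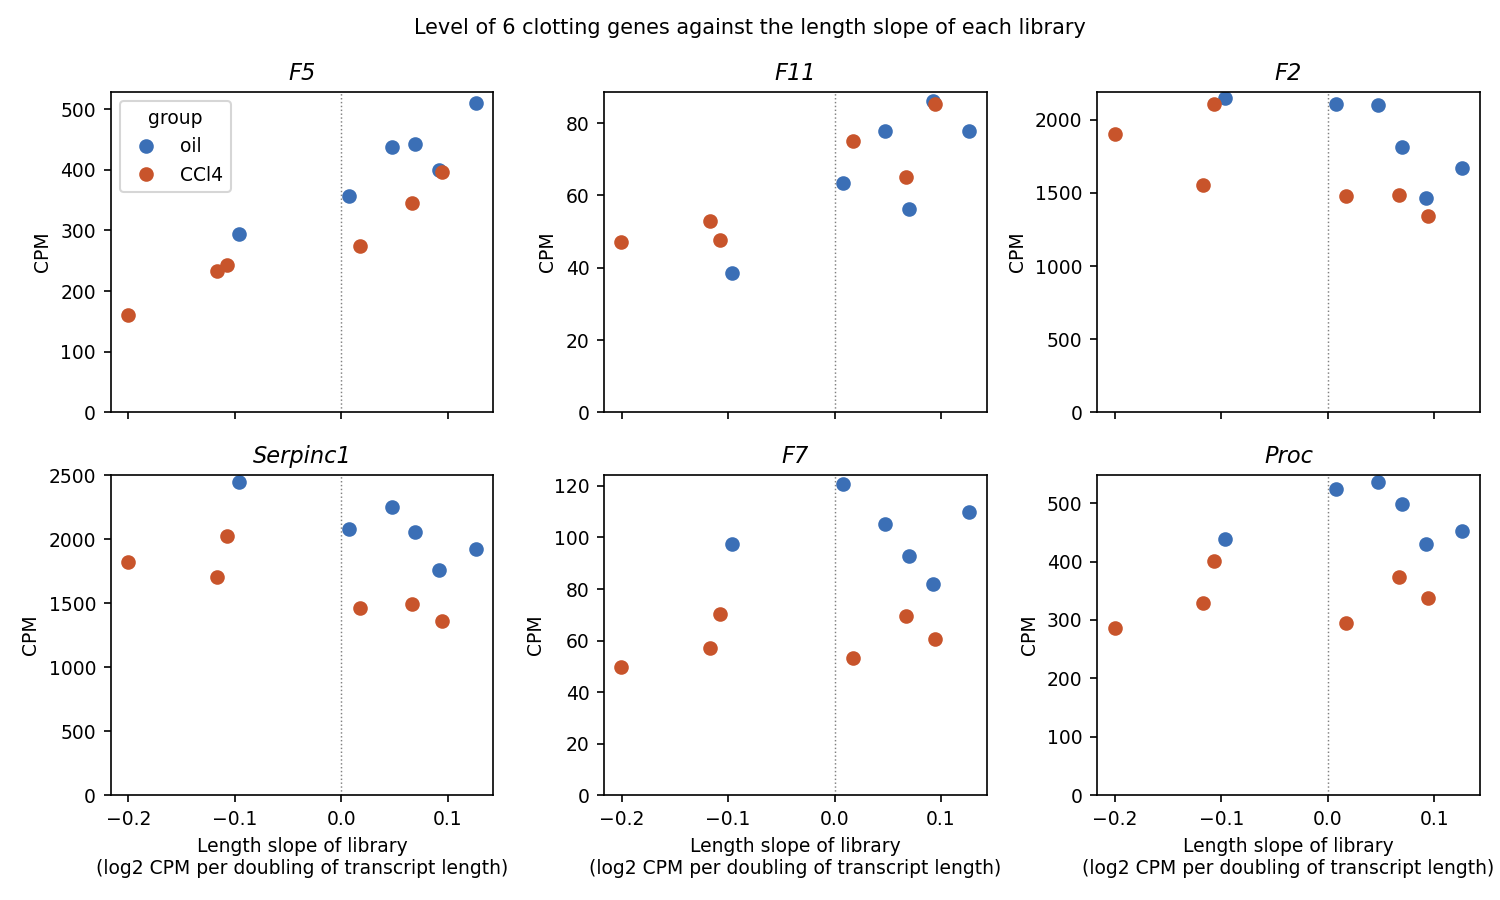
CPM of 6 clotting genes (y axis, linear) against the length slope of each library (x axis, log2 CPM per doubling of transcript length); points are livers, coloured by group. F5 and F11 are low in the 4 libraries left of 0, and F2 and Serpinc1 are high there within each group. The groups of F7 and Proc do not overlap, so any split by slope keeps oil above CCl4. Oil replicate 5 is the only oil library left of 0.

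Among other clotting genes made by hepatocytes, 4 of 12 tested fell and none rose, with a median log2 fold change of -0.27: Klkb1 and Proz, given above, Hrg and F13b. Over all tested genes 18.4% were called lower and 20.6% higher. Hrg, histidine-rich glycoprotein, went from 1089 ± 193 to 744 ± 200 CPM (adjusted p = 0.0324). Dropping any one of CCl4 replicates 2, 3 and 6 and oil replicates 2, 4 and 6 ended the call of Hrg, at 0.0501 to 0.0715, and the length slope as a covariate gave -0.41 (adjusted p = 0.0521). F13b, a carrier subunit of factor XIII chosen after its values were seen, went from 184 ± 28.2 to 138 ± 24.5 CPM (adjusted p = 0.0359), a call that ended on dropping any one of CCl4 replicates 1, 5 and 6 and oil replicates 4 and 5 (0.0539 to 0.0749). Fgg had a log2 fold change of -0.11 ± 0.25 (SE; adjusted p = 0.738), and its sign turned on dropping oil replicate 5 (0.14) and with upper-quartile scaling (0.013).

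Of 8 genes of the vitamin K cycle and of clotting factor secretion 2 fell and none rose (median -0.24). This count stands beside 18.4% of all tested genes called lower and 20.6% called higher. Ggcx, the carboxylase that modifies factors II, VII, IX and X and protein C, ran from 59.2 to 93.7 CPM in oil and from 32.4 to 63.4 CPM in CCl4. It fell 1.64-fold (log2 fold change -0.71 ± 0.18 SE, adjusted p = 0.00610). Furin, which trims precursor proteins, fell 1.57-fold (adjusted p = 0.0417), a call that ended on dropping any one of replicates 2, 3, 4 and 6 of either group (0.0568 to 0.0904). In both genes the 3 lowest CCl4 livers by level included replicates 2 and 6, and the lowest oil liver was replicate 5, libraries with a negative length slope. In the fit that included the slope, the log2 fold change was -0.50 for Ggcx and -0.37 for Furin, in place of -0.71 and -0.65, and both passed (adjusted p = 0.000427 and 0.0195). Vkorc1l1, a vitamin K reductase, was at 44.8 ± 4.38 CPM in oil and 37.7 ± 3.61 CPM in CCl4 (SD, n = 6 each; adjusted p = 0.0799).

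Of 10 transcription factors known to act on clotting genes in hepatocytes 5 fell and none rose (median -0.49), beside 18.4% and 20.6% of all tested genes. Hnf4a, a nuclear receptor, went from 681 ± 130 to 328 ± 90.7 CPM, 2.08-fold lower (SD, n = 6 each; adjusted p = 0.000681), with no overlap between groups. Foxa1 fell 1.89-fold (adjusted p = 0.00104), also without overlap. Onecut1 fell 3.13-fold at a low level, from 6.47 ± 5.42 to 2.06 ± 1.35 CPM (adjusted p = 0.0250). Its adjusted p was 0.0533 on dropping CCl4 replicate 2 and 0.0830 on dropping oil replicate 3, and 0.0598 in the fit that included the length slope. Cebpa, chosen after its values were seen, went from 268 ± 54.3 to 204 ± 22.8 CPM (SD, n = 6 each; adjusted p = 0.0445). Its call ended on dropping any one of CCl4 replicates 2, 3, 5 and 6 and oil replicates 1, 3, 4 and 5, at an adjusted p of 0.0561 to 0.0964.

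Fibrin clots are dissolved by plasmin. Of 8 fibrinolysis genes 3 rose and 1 fell (median 0.55), beside 20.6% of all tested genes called higher and 18.4% called lower. Plg, plasminogen, is secreted by hepatocytes and fell 1.52-fold, from 2432 ± 401 to 1602 ± 243 CPM (SD, n = 6 each; adjusted p = 0.00434). Its activators Plat and Plau rose 10.05-fold and 6.91-fold, from 0.786 ± 0.355 to 7.96 ± 1.52 CPM and from 0.964 ± 0.274 to 6.68 ± 1.96 CPM, and the receptor Plaur rose 5.71-fold (adjusted p = 1.66e-06, 1.39e-06 and 5.95e-06). Of 11 tested haemostasis genes of endothelium, macrophages and stellate cells 5 rose and 2 fell (median 0.16), beside the same shares of all genes. Procr and Thbd, the endothelial receptors through which protein C is activated, rose 5.26-fold and 3.02-fold, to 3.59 ± 1.12 and 15.96 ± 5.18 CPM. F13a1, the catalytic subunit of factor XIII made by macrophages, rose 4.92-fold, and Tfpi2, a protease inhibitor, fell 1.55-fold (adjusted p = 0.00728). Tfpi, the inhibitor of the tissue factor pathway, and F2rl1, a protease-activated receptor, also rose, and Adamts13, the protease that cuts von Willebrand factor, also fell; these 3 were chosen after their values were seen. Dropping oil replicate 6 put Adamts13 at an adjusted p of 0.0502. The macrophage and stellate cell markers given above rose in the same livers.

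Scaling by total counts alone bore on these lists too. Klkb1, Proz, Hnf4a and Foxa1 passed under it, at log2 fold changes of -0.69, -0.62, -0.79 and -0.65, as did the rises of Plat, Plau, Plaur, Procr, Thbd, F13a1, Tfpi and F2rl1. Ggcx (adjusted p = 0.0852), Plg (0.0622), Tfpi2 (0.0819), Onecut1 (0.0545), Hrg (0.237), F13b (0.348), Furin (0.236), Adamts13 (0.122) and Cebpa (0.449) did not. With upper-quartile scaling the calls of Hrg (adjusted p = 0.0839), F13b (0.123), Furin (0.0888) and Cebpa (0.149) ended too. Lower calls were then 2 for other hepatocyte-made clotting genes, 1 for the vitamin K list and 3 for transcription factors, beside 12.6% of all genes.

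**Figure D4:**
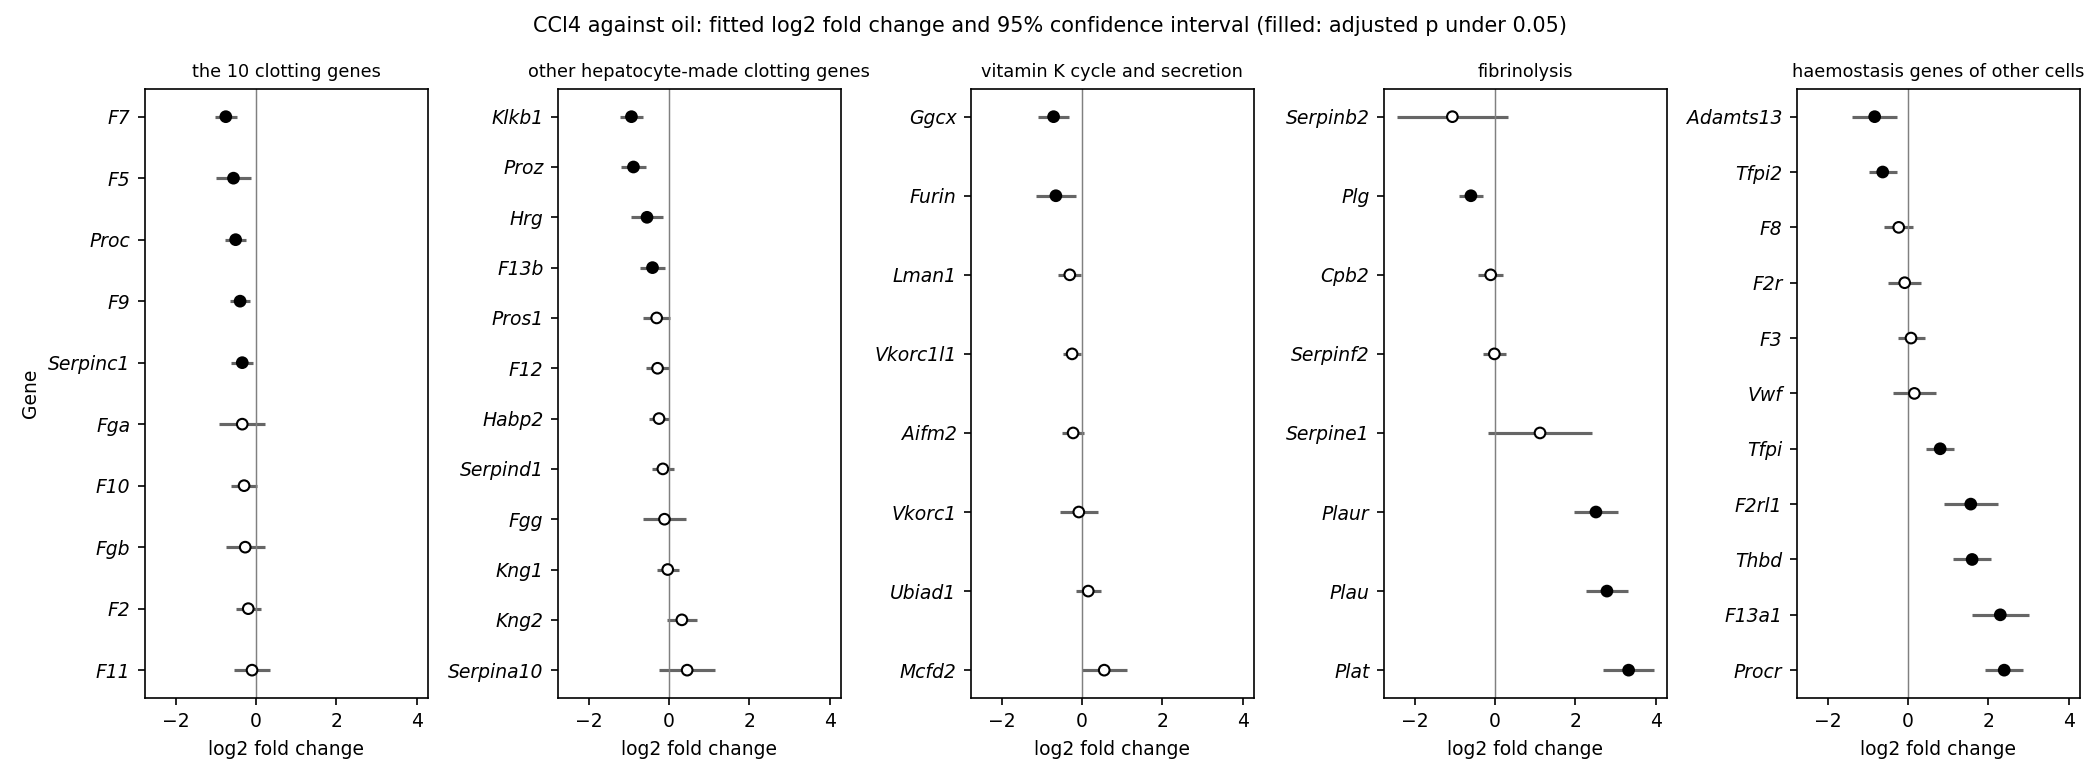
Fitted log2 fold change of CCl4 against oil (x axis) with its 95% confidence interval, by gene (y axis), for the 10 clotting genes and 4 lists of other haemostasis genes. Filled points have an adjusted p under 0.05. The 10 clotting genes lie between -0.75 and -0.10, while Plat, Plau, Plaur, Procr and F13a1 lie above 2.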

How the data were processed

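The authors deposited raw read counts per gene, which are whole numbers; all 12 columns of the series table equalled the samples' own files. Per the labels' protocols, total RNA was purified on columns and a stranded kit was used for the libraries. The build was GRCm38, per the submitters' processing notes. Which aligner, counter and annotation were used, and whether strand was used, was not given in the sources used here. Overlapping genes may therefore share reads.

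Treatment labels gave the groups, and numbers of replicates serve as names only. The series' design gives 6 per group and titles number each sample differently, but neither says outright that each sample is a separate animal, so p-values measure the spread between these samples. Of 36528 IDs, 31049 were named from RefSeq for GRCm38.p6 and 77 from GENCODE M21; 5402 unnamed IDs held 2.19% of counts.

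Genes passing filterByExpr (16032) were scaled by TMM. The test was the robust quasi-likelihood one of edgeR 4.0.16 (R 4.3.3), with p-values adjusted by Benjamini and Hochberg's method over all of them. A prior count of 2 went into log2 CPM. The standard error was the log2 fold change divided by the square root of F, and 95% intervals used the fit's degrees of freedom. The 5 count ratios were tested by exact permutation over all 924 splits. Transcript lengths were found for 86.6% of tested genes. The scripts were tested on simulated counts.

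The members and lists were chosen with earlier results of these data known. Genes named besides the members were the 3 of each list with the smallest p, the called gene of smallest p against its list's majority, ratio partners, the nearest tested neighbours, the genes of most similar profile, and others marked as chosen after their values were seen. Alternatives were other scalings (upper quartile, DESeq2 size factors, scaling without mitochondrial genes or the 20 largest genes), DESeq2 1.42.0, limma-voom 3.58.1 with quality weights, other filters, dropping each library, the length slope as a covariate and scaling by total counts alone. No protein sequences were used here. Some genes that the rule names and a motif that was searched are not reported here.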

Additional observations from a re-analysis of the deposited data

Results flagged for a closer look

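Of 78 sets of 6 values examined (members, named genes and ratios in each group), 2 held a library far from the other 5. Far means a gap to the nearest library of more than 0.625 of the range on the log2 scale. Chance gives about 1 in 20, so 2 of 78 is below that share. F13a1 was at 1.33 CPM in CCl4 replicate 4 and at 2.51 to 3.58 CPM in the other 5 CCl4 livers. Tfpi was at 4.51 CPM in oil replicate 6 and at 5.88 to 6.46 CPM in the other 5 oil livers. None of the 10 clotting genes had such a library in either group.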

How the results depend on the processing

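F7 kept direction and call in all 24 alternatives; Proc, called in 23, F9, called in 22, F5, called in 14, and Serpinc1, called in 9, kept their direction. The number of members called lower was 1 with scaling by total counts alone, beside 8.12% of all genes in that fit. It was 2 with upper-quartile scaling (12.6% of all genes) and 3 with a filter of 50 counts in 6 libraries (18.5%). Leaving out each library in turn gave 3 to 5 (14.6% to 22.8%), and 0 were called higher throughout. Over all genes, leaving out a library gave 2875 to 4062 higher and 2356 to 3674 lower, and higher genes made up 52.8% of calls with TMM, 67.3% with upper-quartile scaling and 80.8% with total counts (5474 higher and 1302 lower). Total counts turned the sign of F2 (0.053), F11 (0.17), Fgg (0.15) and Vkorc1l1 (0.0085). F11 changed sign with upper-quartile scaling (0.017), with the length slope as a covariate (0.18) and without the 4 libraries of negative slope (0.054), as did Fga (0.035) and the ratio of Fga to Fgb (0.058) in the last. Fgg changed sign with upper-quartile scaling (0.013), limma-voom (0.21), and without the lowest-slope library of each group (0.089) or all 4 (0.044); it ran from -0.28 to 0.14 when each library was left out in turn.

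Log2 differences of ratios, leaving out each library, ran from -0.13 to -0.04 for Fga to Fgb, 0.10 to 0.24 for Fgg to Fgb, -0.52 to -0.38 for F7 to F10, 0.73 to 0.96 for F11 to Klkb1 and 0.13 to 0.19 for F2 to Serpinc1. Without the lowest-slope library of each group (CCl4 replicate 6 and oil replicate 5) F7 to F10 was -0.40, F11 to Klkb1 0.79 and F2 to Serpinc1 0.13, and without all 4 they were -0.25, 1.152 and 0.15; none passed with these fewer samples, for which the smallest possible p is 0.00794 and 0.0179. These settings and scaling by total counts were chosen after seeing the data. Lower calls ran from 2 to 7 for other hepatocyte-made clotting genes, 0 to 3 for haemostasis genes of other cells, 0 to 4 for the vitamin K list and 2 to 6 for transcription factors; higher calls from 0 to 2 in the first and 0 to 1 in the last 2. Fibrinolysis stayed at 3 higher, with 0 to 1 lower. Over all genes in the same fits, 8.12% to 27.1% were called lower and 13.8% to 34.1% higher. Apart from the stated alternatives' own construction, the cause was not tested. No paired analysis was possible because the labels give the 2 groups no shared replicate numbers. Members had at least 1486 counts per library, so depth limits the low genes of other cells, such as F2rl1 at 0.233 CPM in oil, more than the members.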
